A study of Mus musculus with 3 samples.

Results

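The Hox genes were examined by cluster and paralog group in kidney rudiments of Fgfrl1-/- and wildtype mouse embryos. Members were the non-control probes whose gene name in the array's annotation is Hoxa, Hoxb, Hoxc or Hoxd followed by a number. The rule found 50 probes of 41174, which stand for 38 genes of the 19754 genes tested. The RNA came from kidney rudiments of C57BL/6 embryos at E12.5, either lacking Fgfrl1 or wildtype, dissected from littermates, and 6 to 9 rudiments were pooled for each preparation. Each of 3 2-colour arrays held 1 Fgfrl1-/- pool labelled with Cy3 (green) and 1 wildtype pool labelled with Cy5 (red). The dyes were not swapped on any array, so a dye effect and a genotype effect cannot be told apart. The rudiments contain ureteric bud, metanephric mesenchyme, stroma and blood-borne cells together, so fewer cells of a type and less RNA per cell cannot be told apart either.

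Hox genes encode homeodomain transcription factors. In the mouse they lie in 4 clusters, and members with the same number in different clusters are paralogs that share most of their homeodomain. Within a cluster the low-numbered genes are switched on early and anteriorly and the high-numbered genes late and posteriorly, which sets the regional identity of the trunk and of organs such as the kidney. The group 11 paralogs act together with Eya1 and Pax2 in the metanephric mesenchyme to switch on Six2 and Gdnf, and embryos without them form no kidney. Fgfrl1 is a receptor related to the fibroblast growth factor receptors, without a kinase domain, and is needed for the first nephron precursors.

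The gene targeted in the mutant was measured first. The log2 ratio of Fgfrl1-/- over wildtype for Fgfrl1 was -1.21, -1.51 and -1.83 on arrays 1, 2 and 3 (mean -1.52 ± 0.306, SD, n = 3, adjusted p = 0.0108, limma), in the direction of the labels. Array 1 was hybridised on another slide than arrays 2 and 3 and stood apart. Over all genes tested, each by its brightest probe, its ratios correlated with those of arrays 2 and 3 at r = 0.280 and 0.325. Arrays 2 and 3 correlated with each other at r = 0.769. These correlations are across genes, which are not independent replicates. Probes were taken as well above background by the scanner software's flags, averaged over the spots of a probe. Their share was between 57.1% and 80.2% in the Cy3 channel and between 60.9% and 65.0% in the Cy5 channel. With 3 arrays the precision of each value is limited by their number.

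The probes were 60 bases long, and their positions refer to build mm8. On the array, the Hoxa probes spanned 103307 bases of chromosome 6, the Hoxb probes 171143 bases of chromosome 11, the Hoxc probes 107790 bases of chromosome 15 and the Hoxd probes 95055 bases of chromosome 2. Because the homeobox is the conserved part of these genes, probes placed in it show how far paralogs can be told apart on an array. The group 13 genes of the clusters a, b and d each have a homeobox probe, shown here 5′ to 3′ with capitals at the 23 positions where all of them carry the same base, out of 44 positions that all cover.
Hoxa13, chr6:52188599-52188658, minus strand: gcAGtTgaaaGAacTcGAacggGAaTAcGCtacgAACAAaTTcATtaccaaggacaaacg
Hoxb13, chr11:96012144-96012203, plus strand: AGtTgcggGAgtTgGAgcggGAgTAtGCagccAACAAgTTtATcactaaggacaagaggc
Hoxd13, chr2:74470787-74470846, plus strand: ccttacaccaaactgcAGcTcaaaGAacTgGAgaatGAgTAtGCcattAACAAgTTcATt

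None of these group 13 homeobox probes was well above background in any wildtype channel, so no ratio is given for them. Of 1213 pairs of probes of different Hox genes, 4 shared an unbroken run of 12 or more bases.

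The comparison asked whether Hox levels differed between the genotypes, as a whole or at one end of a cluster. Of the 38 genes, 2 were lower in the Fgfrl1-/- rudiments at an adjusted p below 0.05 and 0 were higher, by limma's moderated test adjusted over all genes. Among all genes tested, 1.7% were lower and 1.96% were higher at that threshold. That balance depended on the scaling, with 336 lower and 387 higher genes here and 305 and 17 with median centring. Without the adjustment, 9 Hox genes had a p below 0.05, against 21.1% of all genes, 5 of them with a negative and 4 with a positive mean. The genes called were Hoxd13 and Hoxd1, which lie at opposite ends of the Hoxd cluster. The other 36 had adjusted p-values from 0.0594 to 0.991.

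Of the 38 genes, 8 had a ratio below 0 on every array and 7 a ratio above 0 on every array, against 20.6% and 22.6% of all genes. No Hox gene had a mean difference of 2-fold or more under the processing used here. With a smaller offset in the background correction (0 in place of 50), Hoxd13 reached -1.14, and with the ratios of the scanner software Hoxd13 reached -1.17 and Hoxb1 -1.16, none of them past the test. The median log2 ratio was 0.02 over the Hox genes and 0.01 over all genes. By cluster, the median was 0.05 for the 11 Hoxa genes, -0.06 for the 10 Hoxb genes, 0.02 for the 8 Hoxc genes and -0.01 for the 9 Hoxd genes. By position, it was 0.04 for the 23 genes of paralog groups 1 to 8, -0.01 for the 9 genes of groups 9 to 11 and -0.07 for the 6 genes of groups 12 and 13, of which 3 were not well above background in any channel. The median of groups 1 to 8 was -0.10 without array 1, 0.16 without array 2 and 0.05 without array 3. With each array's ratios centred on their median in place of the loess curve, the medians became -0.02 for groups 1 to 8, -0.37 for groups 9 to 11 and 0.01 for groups 12 and 13. Under that centring the median of all genes was -0.02. A separate filter left out dim probes, those not well above background on every array in at least 1 genotype. Of groups 12 and 13 it kept only Hoxd13 and Hoxd12, with a median of -0.42. Hoxd12 was kept through its wildtype channels alone, so that value does not describe the groups.

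**Figure D1:**
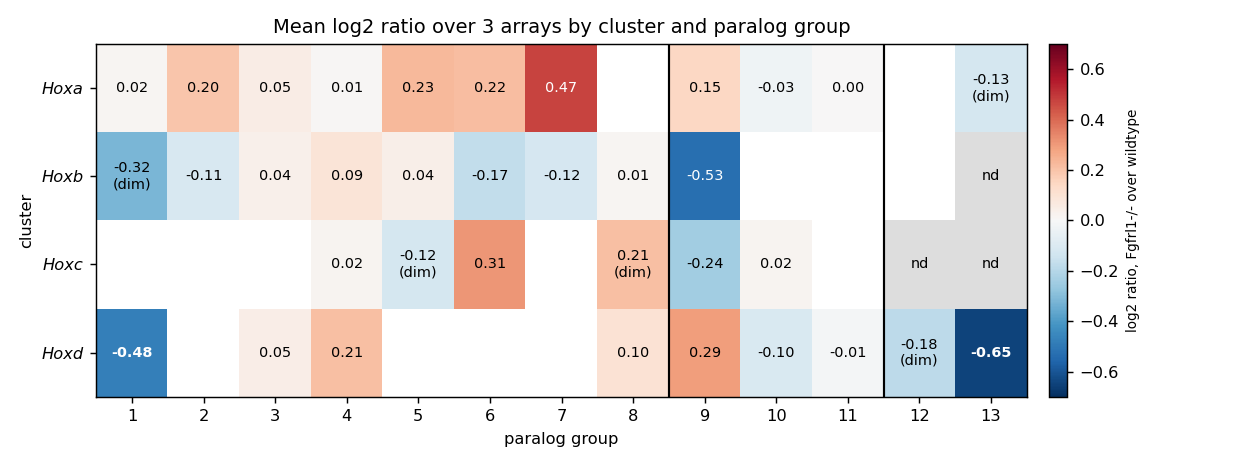
Mean log2 ratio of Fgfrl1-/- over wildtype (colour and number) by cluster (rows) and paralog group (columns), over 3 arrays. Bold numbers are Hoxd13 and Hoxd1, the genes past the test; "dim" marks genes not well above background in every channel, grey squares marked "nd" are genes not well above background in any channel, and white squares hold no gene measured here.

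Hoxd13, the most posterior gene of its cluster and known for its role in the digits, the genital tubercle and the hindgut, was lower in the Fgfrl1-/- rudiments. On array 1 its normalised log2 signal was 6.30 in the Fgfrl1-/- pool and 6.80 in the wildtype pool. Array 2 gave 6.75 and 7.54 for the same pools, and array 3 gave 6.80 and 7.46. The Fgfrl1-/- level was the lower one on each array, and the groups met at 6.80, where the brightest Fgfrl1-/- pool lay just under the dimmest wildtype pool. The log2 ratio was -0.65 ± 0.144 (SD, n = 3), a 1.57-fold lower level, with a 95% interval from -0.86 to -0.44 and an adjusted p of 0.0241 (limma).

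The Hoxd13 signal was weak. Before correction the median spot signal was 57 to 73 in the Fgfrl1-/- channels and 99.5 to 204 in the wildtype channels, though the software marked it as well above background in all 6. The probe lies at chr2:74472030-74472089, downstream of the homeobox probe shown above. That homeobox probe was well above background in 1 of 3 Fgfrl1-/- channels and in 0 of 3 wildtype channels, so it cannot say whether the lower level holds elsewhere in the transcript. With the mean of both probes in place of the brighter one, the ratio was -0.35 (adjusted p = 0.0537, limma), past the threshold no longer. The adjusted p was 0.140 without array 2 and 0.211 without array 3 (limma). Over its alternatives it ranged from 2.57e-04 to 0.211, the lowest being without array 1, where 11.4% of all genes were called lower.

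Hoxd1, the anterior end of the same cluster and known from developing sensory neurons, was lower as well and had even ratios of -0.48, -0.51 and -0.45. The Fgfrl1-/- levels were 6.47, 7.64 and 7.55 and the wildtype levels 6.95, 8.15 and 8.01 on arrays 1, 2 and 3. Both genotypes were lower on array 1 than on the other arrays, so the groups overlapped across arrays while the Fgfrl1-/- pool was the lower one within each. The log2 ratio was -0.48 ± 0.0275 (SD, n = 3), a 1.39-fold lower level, with an adjusted p of 0.0317 (limma). The adjusted p was 0.190 without array 2 and 0.267 without array 3. The Hoxd1 probe, at chr2:74565782-74565841, has a stop codon in each forward reading frame, so it is not wholly coding sequence.

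Between these ends, 93752 bases apart, none of the other 7 Hoxd genes passed the test. Their mean log2 ratios ran from -0.18 (Hoxd12) to 0.29 (Hoxd9).

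**Figure D2:**
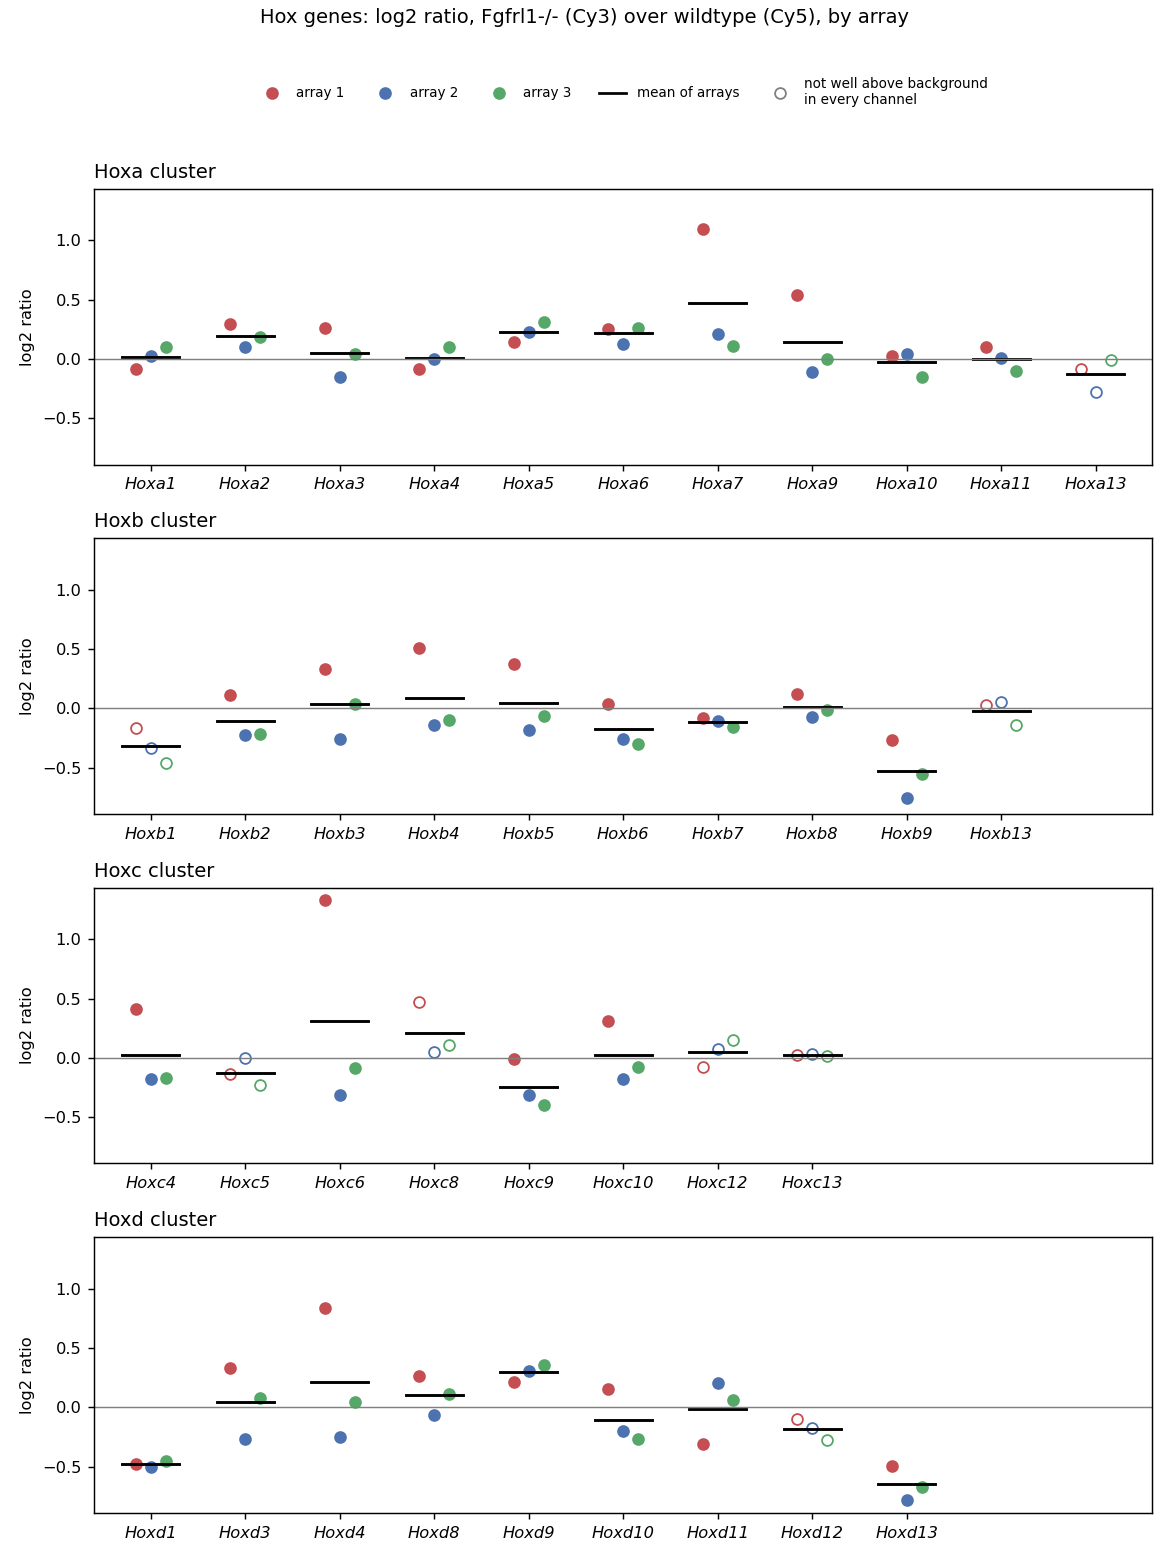
Log2 ratio of Fgfrl1-/- over wildtype on each array (points, coloured by array) and its mean (bar) for the 38 Hox genes in 4 panels, 1 per cluster, in order of paralog number. Open points belong to genes not well above background in every channel. Hoxd1 and Hoxd13 lie below 0 on every array, while Hoxa7, Hoxc6 and Hoxd4 have array 1 far above arrays 2 and 3.

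The group 11 genes, which are required for the metanephric kidney to form, were close to 0. Hoxa11 had Fgfrl1-/- levels of 11.89, 12.60 and 12.59 and wildtype levels of 11.80, 12.59 and 12.69. The ratios were 0.10, 0.01 and -0.10, with a mean of 0.00 and a 95% interval from -0.19 to 0.19 (adjusted p = 0.991, limma). The levels of both genotypes were lower on array 1 and the genotypes overlapped on the others. Hoxd11 had ratios of -0.31, 0.21 and 0.06, with a mean of -0.01 and a wider interval, from -0.29 to 0.26 (adjusted p = 0.969). Array 1 and the other arrays thus had opposite signs for Hoxd11. Under median centring the mean of Hoxa11 was -0.37 (adjusted p = 0.548). Hoxc11 was not analysed here.

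The group 10 genes, known in the kidney for the placing of stromal cells, did not pass the test over the 3 arrays. Hoxa10 had ratios of 0.02, 0.04 and -0.15 (mean -0.03, 95% interval -0.22 to 0.16). Hoxd10 had ratios of 0.15, -0.20 and -0.27 (mean -0.10, interval -0.35 to 0.15). Without array 1 it passed at -0.23 (adjusted p = 0.0379, limma), in a fit that called 11.4% of all genes lower and 12.3% higher. For Hoxc10 the ratios were 0.31, -0.18 and -0.07 (mean 0.02, interval -0.25 to 0.29), whereas its other probe had a mean of -0.21 (SD 0.0232, unadjusted p = 0.0249, adjusted p = 0.228 over all probes, limma). By the brightest probe, array 1 lay above 0 and above at least 1 other array for each of these genes. The adjusted p-values were 0.893, 0.640 and 0.946 (limma).

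The group 9 genes, which act together in the trunk and in the posterior forelimb field, pointed in different directions, and none passed the test over the 3 arrays. Hoxb9 had the lowest mean. Its Fgfrl1-/- levels were 10.76, 10.62 and 10.60, its wildtype levels were 11.02, 11.38 and 11.15, and the groups did not overlap. The log2 ratio was -0.53 ± 0.246 (SD, n = 3), with a 95% interval from -0.79 to -0.26 and an adjusted p of 0.0594 (limma). Under median centring Hoxb9 was the Hox gene called. Within the slide that held arrays 2 and 3 it passed as well (log2 ratio -0.66, adjusted p = 5.90e-04, limma). That fit rests on those arrays alone, and in it 11.4% of all genes were called lower and 12.3% higher.

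Hoxc9 had ratios of -0.01, -0.32 and -0.40 (mean -0.24, adjusted p = 0.231). Within arrays 2 and 3, where 11.4% of all genes were called lower and 12.3% higher, it passed at -0.36 (adjusted p = 0.00649, limma). In the opposite direction, Hoxd9 had Fgfrl1-/- levels of 8.91, 8.61 and 8.74 and wildtype levels of 8.69, 8.30 and 8.38, which overlapped across arrays. Its ratios were 0.22, 0.31 and 0.36, above 0 on every array (mean 0.29, interval 0.11 to 0.47, adjusted p = 0.0881, limma). Within arrays 2 and 3 Hoxd9 passed too, at 0.33 (adjusted p = 0.00837, limma). Hoxa9 had ratios of 0.54, -0.11 and 0.00, with array 1 apart from the others (mean 0.15, adjusted p = 0.618). For 8 of the 9 genes of groups 9 to 11 the 95% interval lay within 0.5 of 0 on the log2 scale, Hoxb9 being the exception.

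**Figure D3:**
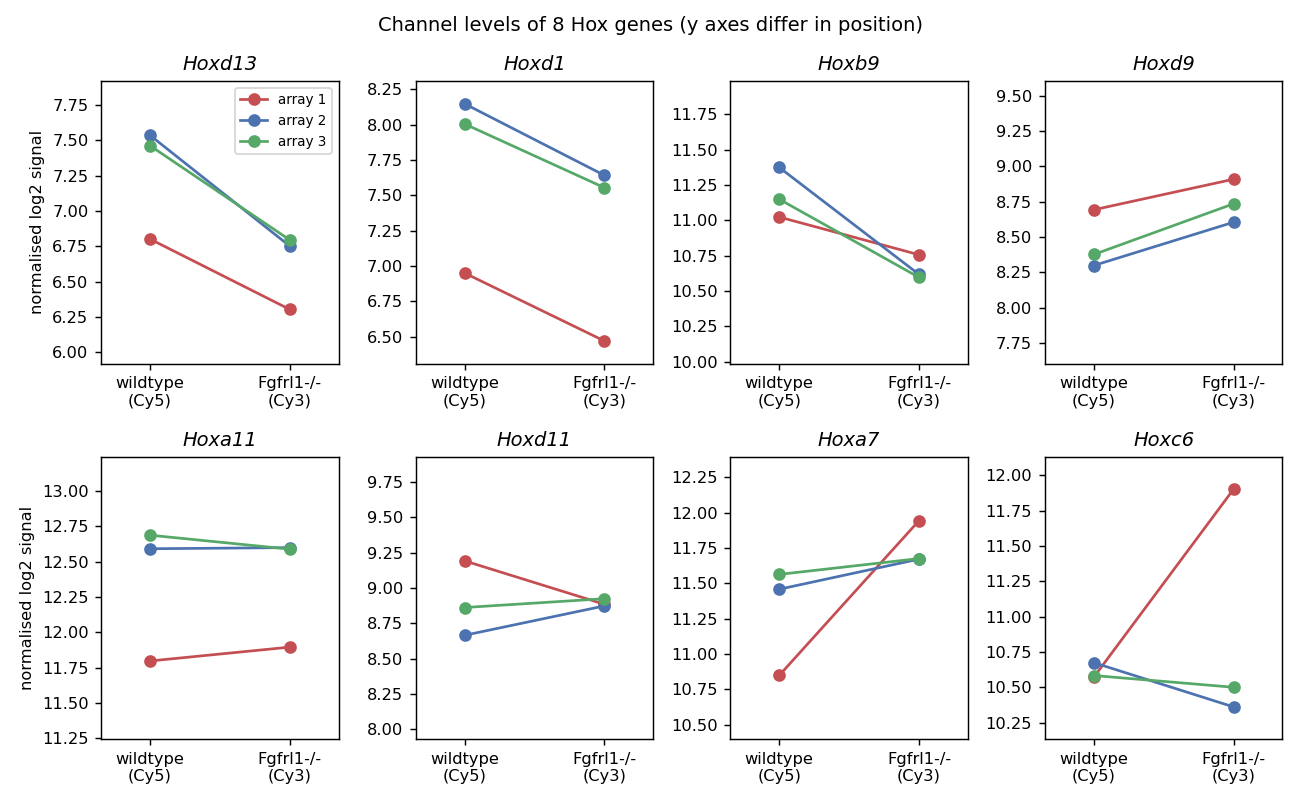
Normalised log2 signal of 8 Hox genes in the wildtype (Cy5) and Fgfrl1-/- (Cy3) channel of each array, with a line joining the pools of 1 array. Lines fall on every array for Hoxd13, Hoxd1 and Hoxb9 and rise on every array for Hoxd9 and Hoxa7, by 1.09 on array 1 for Hoxa7; for Hoxc6 the line of array 1 rises and the others fall.

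Among groups 1 to 8, 20 of 23 genes were well above background in all 6 channels, and Hoxd1 was the gene called. The next lowest mean was that of Hoxb1, an anterior gene of the hindbrain, at -0.32 with ratios of -0.16, -0.33 and -0.46 (adjusted p = 0.105, limma). Its Fgfrl1-/- signal was well above background on 2 of 3 arrays, and its mean moved to -0.73 with a normexp offset of 0 and to -1.16 with the scanner software's ratios, passing under neither. Hoxa2, Hoxa5 and Hoxa6, genes of the anterior part of the Hoxa cluster that pattern the hindbrain, the lung and the vertebrae, were above 0 on every array. Hoxa5 had Fgfrl1-/- levels of 8.85, 9.15 and 9.27 against wildtype levels of 8.71, 8.92 and 8.95, which overlapped across arrays. The mean log2 ratios were 0.20 for Hoxa2, 0.23 for Hoxa5 and 0.22 for Hoxa6, with adjusted p-values of 0.219, 0.154 and 0.171.

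Hoxb7, whose promoter is widely used to mark the Wolffian duct and the ureteric bud, had ratios of -0.08, -0.11 and -0.15. The Fgfrl1-/- levels were 12.23, 12.35 and 12.27 and the wildtype levels 12.31, 12.46 and 12.43. The mean of -0.12 had an interval from -0.29 to 0.06 (adjusted p = 0.422, limma). Of the 9 listed markers of the ureteric epithelium, Hoxb7 included, Wnt11, a signal of the bud tip, was lower (log2 ratio -0.76, adjusted p = 0.0172, limma) and Wnt9b, the signal of the stalk, was higher (0.73, adjusted p = 0.0324). Gata3, Calb1, Krt8 and Cdh1, genes of the duct and of epithelia, did not pass but had ratios above 0 on every array, with means of 0.43, 0.37, 0.52 and 0.34 and adjusted p-values of 0.0539, 0.110, 0.0657 and 0.0782. The summed level of the markers, again with Hoxb7 included, is the log2 of their added unlogged signals. It was 14.81 to 15.15 in Fgfrl1-/- and 14.68 to 14.77 in wildtype, without overlap. Its part in the Hoxb7 ratio was not tested.

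The largest positive mean among the Hox genes was that of Hoxa7, a gene of the thoracic region. Its Fgfrl1-/- levels were 11.94, 11.67 and 11.68 and its wildtype levels 10.85, 11.46 and 11.56, without overlap. The ratios were 1.09, 0.21 and 0.11, so that the mean of 0.47 rested largely on array 1 (interval -0.0036 to 0.95, adjusted p = 0.240, limma). Without array 1 it was 0.16. Hoxc6, another thoracic gene, had ratios of 1.33, -0.31 and -0.08, a mean of 0.31 and an adjusted p of 0.644. Without array 1 its mean was -0.20. The spread between arrays for Hoxc6, an SD of 0.889, exceeded its mean.

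Array 1 stood above the other arrays for further Hox genes. In 6 of 38 Hox genes (Hoxa7, Hoxa9, Hoxb4, Hoxc4, Hoxc6 and Hoxd4, all of groups 4 to 9) the ratio on array 1 exceeded the mean of arrays 2 and 3 by over 0.5, against 6.33% of all genes. In 0 it lay below by that much, against 3.9% of all genes. Hoxb4 had ratios of 0.51, -0.14 and -0.10, Hoxc4 of 0.42, -0.18 and -0.17, and Hoxd4 of 0.84, -0.25 and 0.04. Over groups 1 to 8 the median ratios of arrays 1, 2 and 3 were 0.26, -0.14 and 0.04, while over all genes they were 0.00, 0.01 and 0.01.

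The level itself also differed between slides. In 29 of 38 Hox genes the mean level of both channels on array 1 differed from that on arrays 2 and 3 by more than the mean difference between the genotypes, against 64.2% of all genes. Hoxb8, a gene of the thoracic and lumbar region, was at 7.86 and 7.74 in the Fgfrl1-/- and wildtype channels of array 1 and at 9.28 to 9.44 in the channels of arrays 2 and 3, with a mean log2 ratio of 0.01. Within the slide of arrays 2 and 3 alone, 9 Hox genes were called lower (Hoxb1, Hoxb2, Hoxb6, Hoxb9, Hoxc9, Hoxd1, Hoxd10, Hoxd12 and Hoxd13) and 2 higher (Hoxa5 and Hoxd9), against 11.4% and 12.3% of all genes. The slide and the array cannot be told apart for array 1, which is the single array of its slide here.

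The most posterior genes gave little signal. Of the 6 genes of groups 12 and 13, Hoxd13 was well above background in all 6 channels and Hoxb13, Hoxc12 and Hoxc13 in none. Hoxa13, which acts with Hoxd13 in the limb and the urogenital sinus, passed the background threshold in 2 of 3 channels of each genotype, with ratios of -0.09, -0.28 and -0.01. Hoxd12 passed it in 3 of 3 wildtype channels and 1 of 3 Fgfrl1-/- channels, with ratios of -0.10, -0.17 and -0.27 (adjusted p = 0.242, limma). No Hox gene was well above background on every array of a genotype and on none of the other.

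A further probe was present for 12 genes, and in 7 of them both probes were well above background in all 6 channels. For Hoxb9 the further probe gave -0.04, -0.75 and -0.84, with a mean of -0.54 close to the -0.53 of the brighter probe (adjusted p = 0.208 over all probes, limma). The Hoxd9 further probe gave -0.04, 0.23 and 0.16, with a mean of 0.12 against 0.29. For Hoxc10 it gave -0.19, -0.23 and -0.20, below the brighter probe on each array.

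On array 1 the probes of 3 of these 7 genes differed by over 0.5, and on arrays 2 and 3 those of 0. The brighter Hoxb6 probe gave 0.04, -0.26 and -0.30 and its further probe 1.19, 0.03 and -0.15. For Hoxb2, a gene of the hindbrain, the brighter probe gave 0.12, -0.23 and -0.22 and the further probe 1.16, -0.34 and -0.20. That Hoxb2 probe, at chr11:96166636-96166695, lies on the minus strand, against the plus strand of every other Hoxb probe, so by the listed position it reads a transcript of the opposite strand and not the Hoxb2 messenger RNA.

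**Figure D4:**
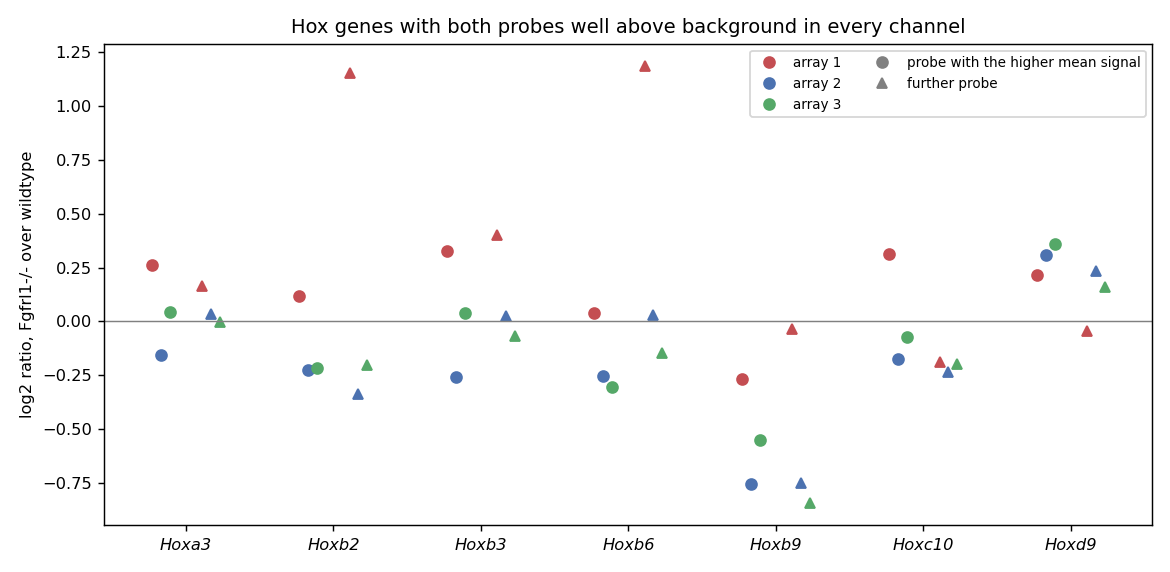
Log2 ratio of Fgfrl1-/- over wildtype on each array (colours) for the brighter probe (circles) and the further probe (triangles) of the 7 Hox genes with both probes well above background in every channel. The probes of Hoxb9 lie below 0 on every array, and the further probes of Hoxb2 and Hoxb6 reach 1.16 and 1.19 on array 1 only.

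Hox proteins bind DNA together with cofactors of the TALE class. None of 9 tested TALE genes passed the test. Their median log2 ratio was 0.22, and 5 of them were above 0 on every array, against 22.6% of all genes. Meis1 and Meis2, which join Hox proteins on DNA, had means of 0.37 and 0.30 (adjusted p = 0.0722 and 0.0791, limma).

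Of 14 regulators of Hox expression (Cdx factors, Gdf11 and its receptors, retinoic acid receptors and Cyp26 enzymes), 0 passed in either direction and the median was -0.04. The lowest was Cyp26b1, which degrades retinoic acid, with ratios of -0.28, -0.64 and -0.75 (mean -0.56, adjusted p = 0.0540, limma). Of 18 Polycomb and trithorax group genes, which hold Hox clusters silent or active, 0 passed and the median was 0.00. Without the adjustment, p was below 0.05 for 5 of the TALE genes, 2 of the regulators and 4 of the Polycomb and trithorax genes. The share over all genes was 21.1%.

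Among 10 partners and targets of the group 11 genes in the metanephric mesenchyme, 2 were lower and 0 higher, against 1.7% and 1.96% of all genes. Gdnf, the signal that draws out the ureteric bud, had ratios of -1.02, -0.66 and -0.81 (mean -0.83, adjusted p = 0.0175, limma). Itga8, an integrin chain of the mesenchyme, had ratios of -0.71, -0.80 and -0.82 (mean -0.78, adjusted p = 0.0134). Six2, the marker of nephron progenitors, had ratios of 0.19, -0.05 and -0.28 (mean -0.05, adjusted p = 0.863), and Eya1 of -0.77, -0.30 and -0.20 (mean -0.42, adjusted p = 0.124).

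Genes next to the clusters were also tested, within 300 kb outside the outermost Hox probe. Of the 3 neighbours of the Hoxa cluster, 1 was higher, against 1.96% of all genes. This was Hibadh, an enzyme of valine breakdown, with ratios of 0.48, 0.75 and 0.70 (mean 0.64, adjusted p = 0.0245, limma). None of the 7 neighbours of Hoxb, the 9 of Hoxc or the 4 of Hoxd passed. An unadjusted p below 0.05 was found for 2, 2 and 1 of them, against 21.1% of all genes. Evx1 and Evx2, the homeobox genes beside Hoxa13 and Hoxd13, had mean log2 ratios of -0.10 and 0.04. Evx2, well above background on every array, had an interval from -0.16 to 0.24, above that of Hoxd13.

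Markers of the cell types in and around the rudiment moved in part with the genotype, and their part in the Hox ratios was not tested. At the same threshold 1.7% of all genes were lower and 1.96% higher. All 6 renal vesicle markers fell (median log2 ratio -1.50), with a summed level of 10.70 to 11.35 in Fgfrl1-/- and 12.54 to 12.65 in wildtype. Of 7 stromal markers, 2 rose (Foxd1 and Pdgfra), with a summed level of 16.12 to 16.34 against 15.75 to 15.84. Tcf21, another gene of that list, had ratios of -0.77, -0.32 and -0.34 and did not pass (mean -0.48, adjusted p = 0.0758, limma). Of 4 macrophage markers, 3 rose (Csf1r, Cd68 and Lyz2), with a summed level of 11.81 to 12.83 against 11.34 to 11.83. Of 6 neural and neural crest markers, 1 fell (Elavl4, log2 ratio -0.71), with a summed level of 10.58 to 10.81 against 10.97 to 11.23.

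Posterior Hox genes are also active in tissues around the rudiment. Of these, 0 of 4 markers of the ureter and cloacal mesenchyme and 0 of 6 of the hindlimb and posterior body wall passed in either direction. An unadjusted p below 0.05 was found for 1 in each list, against 21.1% of all genes. The summed level of the former was 12.47 to 12.81 in Fgfrl1-/- and 12.49 to 12.66 in wildtype, and that of the latter 10.48 to 11.30 and 10.36 to 10.69. Tbx4 and Shox2, markers of the hindlimb and limb mesenchyme, were not well above background in any channel. Of 8 markers of the cap mesenchyme, 1 fell (Cited1), against 1.7% of all genes. Their summed level was 14.28 to 14.49 in Fgfrl1-/- and 14.73 to 14.76 in wildtype, and all 8 were well above background on every array. No marker of gonad and adrenal, hindgut, skeletal muscle, cartilage, endothelium or erythroid cells passed. Only 2 of 6 gonad and adrenal and 1 of 5 hindgut markers were well above background in all 6 channels. For skeletal muscle, cartilage, endothelium and erythroid cells it was 3 of 4, 2 of 3, 4 of 4 and 3 of 4.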

How the data were processed

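The 3 arrays were Agilent whole mouse genome arrays, read per the file headers with Agilent Feature Extraction 9.5.3.1 (array 1) and 10.5.1.1 (arrays 2 and 3); the labels name version 10. The authors deposited scanner tables with the intensity of each channel and a log10 ratio, neither normalised between arrays, and a table of log2 ratios. That table ran as Fgfrl1-/- over wildtype, since it correlated with the software's red over green ratios at -0.72 to -0.70, and with the loess ratios at 0.89 to 0.97 with slopes of 1.01 to 1.14; its column medians were -0.018, 0 and 0.003, and its normalisation is not given in the sources used here. Software flags for background, saturation and outliers were read as deposited. Gene names stand in the file of array 1 only and were carried to the others by probe, since all 3 list the same probes.

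Median intensities were background-corrected (normexp, offset 50) and normalised within each array (loess, control spots at weight 0) in limma 3.58.1 under R 4.3.3. Control spots and outlier-flagged spots were left out, spots of a probe were averaged, and each gene was taken from its brightest probe. Genes were named by symbol or accession through RefSeq (33116 of 41174 probes), and all 50 Hox probes had the same name there. Log2 ratios were tested against 0 with lmFit and eBayes, Benjamini-Hochberg over 19754 genes, threshold 0.05; the p-values measure the spread between 3 pairs of pools. Only the fitting step was tested on simulated data, with ratios drawn independently for each array and no shared slide. Levels are log2 signals after loess and Aquantile scaling between arrays. They compare 1 probe between channels, not different probes. A summed level is the log2 of the added unlogged signals of a list, so its brightest probes weigh most.

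The genes named were every Hox gene past the test, all of groups 9 to 11, and the 4 largest means in each direction among Hox genes well above background throughout. Hoxb7, the further probes, the genes of the array 1 pattern, the single genes given for groups 1 to 8, 12 and 13, and the list members that did not pass were chosen after their values were seen. The members and lists were chosen with earlier results of these data known. Alternatives were the background correction, the centring, the software's and the authors' ratios, a filter on dim probes, the probe rule, the gene names and each array left out. Some members of the lists and some probe sequences are not reported here.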

Additional observations from a re-analysis of the deposited data

How the results depend on the processing

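The count of Hox genes lower in Fgfrl1-/- was 2 and became 0 with a normexp offset of 0 or the scanner software's ratios (limma; 7 Hox genes had an unadjusted p below 0.05 under either), and 1 with median centring (Hoxb9), the authors' log2 table (Hoxd13), the mean of probes (Hoxd1) or the gene names of the files (Hoxd13). Leaving out 1 array gave 0 to 9 lower and 0 to 2 higher, the most without array 1. Over all genes the counts of lower and higher genes, 336 and 387, became 0 and 0 with an offset of 0 or the software's ratios (3279 and 3849 genes at an unadjusted p below 0.05), 157 and 113 with the authors' table, 147 and 125 with the names of the files, and 305 and 17 with median centring. Without 1 array, 8 to 2257 genes were lower and 0 to 2437 higher. The counts were within 1.5 times the main ones without background subtraction and with dim probes left out.

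Hoxd1 (log2 ratio -0.48, adjusted p = 0.0317) did not pass with an offset of 0 (-0.69), the software's ratios (-0.65), median centring (-0.56), the authors' table (-0.55) or the names of the files (-0.48, adjusted p = 0.0550, with more genes tested), and ranged from -0.49 to -0.47 with 1 array left out. Hoxd13 (-0.65) did not pass with an offset of 0 (-1.14), the software's ratios (-1.17), median centring (-0.67) or the mean of probes (-0.35), and ranged from -0.73 to -0.58 with 1 array left out. Both passed without array 1 and neither did without array 2 or array 3. The direction was the same in all of these settings; the cause was not tested.

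The median of groups 1 to 8, 0.04, was -0.018 with median centring and -0.10 to 0.16 with 1 array left out. The median of groups 9 to 11 was -0.37 with median centring. The median of groups 12 and 13, -0.07, was -0.078 without background subtraction, -0.22 with an offset of 0 and -0.20 with the software's ratios. It was 0.012 with median centring, -0.11 with the authors' table, -0.031 with the mean of probes, and -0.095 to -0.051 with 1 array left out. With dim probes left out it was -0.42, from Hoxd13 and Hoxd12 alone. Among the genes near 0 the sign turned for Hoxa9 with median centring (-0.15), for Hoxa10 with the software's ratios (0.039), for Hoxd11 without background subtraction (0.0029), for Hoxa11 with an offset of 0 (-0.0086), the software's ratios (-0.089), median centring (-0.37) and the authors' table (-0.017), and for Hoxc10 with the software's ratios (-0.081), median centring (-0.20) and the mean of probes (-0.093). With 1 array left out the range was -0.051 to 0.27 for Hoxa9, -0.064 to 0.033 for Hoxa10, -0.045 to 0.053 for Hoxa11, -0.20 to 0.62 for Hoxc6, -0.12 to 0.12 for Hoxc10 and -0.12 to 0.14 for Hoxd11. By limma, none of these values passed the test. Hoxd10 (-0.10) ranged from -0.23 to -0.023, Hoxc9 (-0.24) from -0.36 to -0.16 and Hoxd9 (0.29) from 0.26 to 0.33, each passing without array 1. Hoxb1 (-0.32) was -0.73 with an offset of 0 and -1.16 with the software's ratios. The slide as a random block could not be fitted, since no correlation within slides could be estimated from 3 arrays. The test on the ratios within arrays is itself paired by array. No paired analysis was possible beyond that test, since the ratios form a single group with no replicate number left to block on. Signal over background limits the genes of groups 12 and 13 and the further probes.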

Other observations

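Other transcripts inside the clusters were measured by 9 probes that do not carry a Hox name, and 0 of them passed the test over all probes or had an unadjusted p below 0.05 (limma). A probe of 2700086A05Rik, named Hoxaas3 in RefSeq, lies at chr6:52140288-52140347 between Hoxa6 and Hoxa7 and on the strand of the Hoxa genes. Its ratios were 0.74, -0.17 and -0.11, with Fgfrl1-/- levels of 9.75, 8.23 and 8.18 and wildtype levels of 9.01, 8.40 and 8.29. Array 1 stood above the others for this transcript as it did for Hoxa7. A probe of 5730446D14Rik, named Hoxaas2, on the strand opposite to Hoxa3, gave 0.15, 0.40 and 0.09 (adjusted p = 0.323 over all probes, limma).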
